A study of Mus musculus with 2 samples.

Results

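Receptors for GM-CSF, M-CSF, G-CSF, stem cell factor, FLT3 ligand and IL-3, with the M-CSF gene itself, form the group of 9 genes described here. They are Csf1r, Csf2ra, Csf2rb, Csf2rb2, Csf3r, Flt3, Kit, Il3ra and Csf1, chosen by name and matched to the array through the transcript accession of each probe. All 9 had a probe, 15 probes in all, out of 23786 genes with a named probe. The RNA came from bone marrow-derived dendritic cells (BMDCs), which are grown from marrow precursors in the presence of GM-CSF. 1 one-colour Agilent array was hybridised with RNA of male C57BL/6J cells labelled Egr1-deficient, and 1 with RNA of male C57BL/6J cells labelled wild type (WT). Both cultures were kept in 10 ng/ml GM-CSF and harvested on day 6, per the labels' protocols. Neither the kind of Egr1 allele nor the number of mice behind each array is stated in those labels.

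These receptors read the growth factors that turn marrow progenitors into myeloid cells. The GM-CSF receptor joins its own alpha chain (Csf2ra) to the common beta chain (Csf2rb), which also serves IL-3 and IL-5, and signals through JAK2 and STAT5. Mice carry a second beta chain gene, Csf2rb2, whose product serves IL-3 only. CSF1R, FLT3 and KIT are instead class III receptor tyrosine kinases, which carry their own kinase domain. CSF1R sustains monocytes and macrophages, FLT3 dendritic cell precursors, and KIT stem cells and mast cells.

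With 1 array per label there is no replicate, so differences are descriptions without p-values and none could be checked in a replicate. Values are processed intensities, the scanner program's background-subtracted signals. Each array was scaled to its own 75th percentile, taken over all spots that are not controls, and differences are on the log2 scale, EGR1-deficient minus WT. That percentile was 191.6 on the EGR1-deficient-labelled array and 183.0 on WT, so equal intensities give a difference slightly below 0. The program's own error estimate grows with the signal, and for a bright probe it gives a standard error of 0.20 log2 units for the difference. Among 270 probes printed in several spots, the difference varied from spot to spot with a median SD of 0.07, and among the 18 of them with signals of 50 to 500 with 0.12. For 3571 genes with 2 probes, the probes' differences had a median SD of 0.17. A probe's signal depends on its sequence, so signals are compared between arrays and not between genes.

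The labels need care. The single Egr1 probe read 1212 on the EGR1-deficient-labelled array and 379.7 on the WT array, 3.05-fold higher on the array whose label names the loss of this gene. The position of the probe in the gene is not known here, and a probe outside a deleted stretch cannot check the label. Xist, the RNA of the inactive X chromosome, read 4559 on the EGR1-deficient-labelled array and 3425 on WT, against the male label of both. Of 7 probes for 4 Y-linked genes, 1, for Eif2s3y, was well above background, on both arrays. It was dim, at 27.1 on the EGR1-deficient-labelled array and 25.6 on WT, and the other Eif2s3y probe read 3.40 and 4.01. Every direction below therefore follows the labels as given. Of the dendritic cell markers, 11 of 13 were well above background on both arrays, among them Itgax (777 against 572 on WT), H2-Ab1 (21791.5 against 20863 on WT) and Zbtb46 (122 against 119 on WT). Clec9a and Xcr1, which define the cross-presenting subset, passed on neither array.

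All 15 probes were well above background on both arrays. None of the 9 genes, each taken by its brightest probe, was 1.5-fold or more apart in either direction. Among all 13726 genes measured above background on both arrays, 7.69% were that far apart, 3.51% higher and 4.17% lower on the EGR1-deficient-labelled array. The 9 differences ran between −0.39 and 0.50, with a median of −0.22, beside a median of −0.05 over all 13726 genes. Of the 9 genes, 5 lay below 0 and 4 above, and of all genes 57.4% lay below 0 and 42.6% above. By probe, 10 of 15 lay below 0. By brightest probe, both beta chains, Csf2ra, Csf1r and Csf1 read lower on the EGR1-deficient-labelled array. Flt3 read higher, and so did Il3ra, Csf3r and, barely, Kit, although the sign of these 3 changed with the processing.

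**Figure D1:**
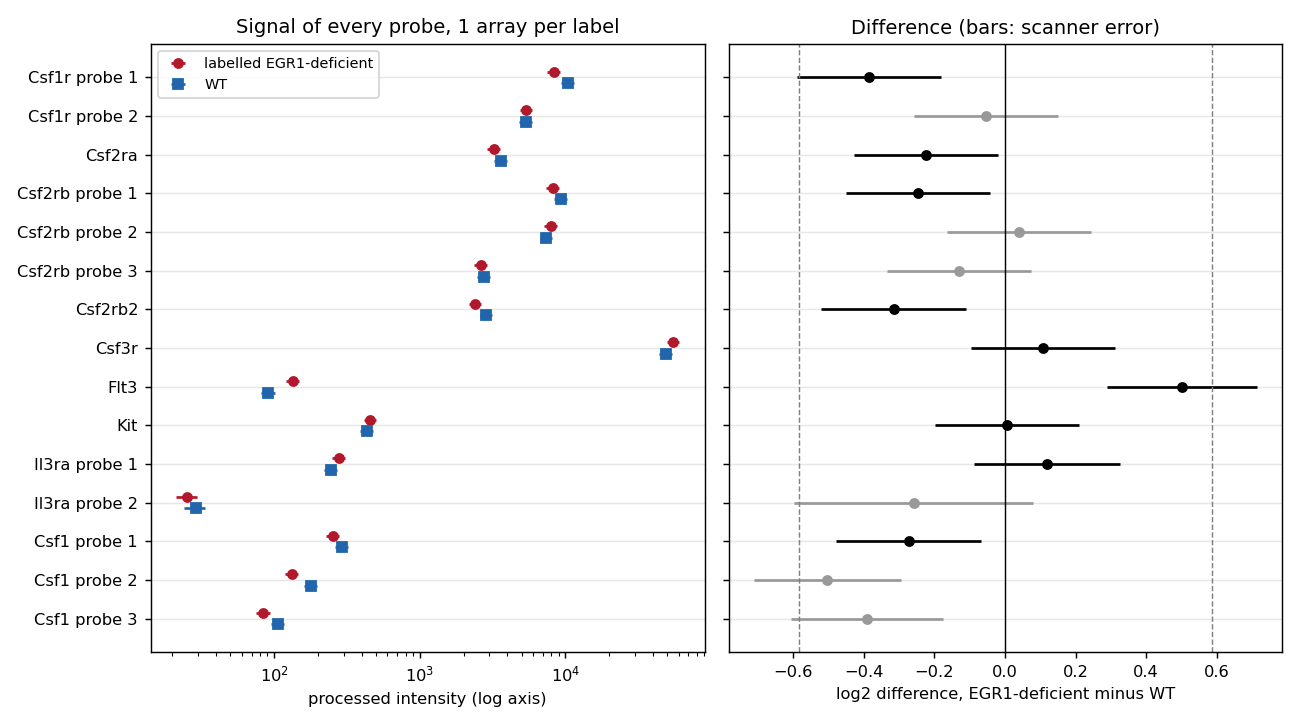
Every probe of the 9 genes. Left, processed intensity on a log axis for the EGR1-deficient-labelled array (red circles) and the WT array (blue squares), with the scanner program's error as bars. Right, the log2 difference, EGR1-deficient minus WT, with the error from both arrays combined, black for the brightest probe of a gene and grey for its others, and dashed lines at 1.5-fold. No point passes a dashed line, and Flt3 at 0.50 and Csf1 probe 2 at −0.50 come nearest.

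The chains of the GM-CSF receptor and the IL-3 beta chain read slightly lower on the EGR1-deficient-labelled array, except in 1 probe. Csf2ra, the alpha chain that gives the receptor its specificity, read 3225 on the EGR1-deficient-labelled array against 3594 on WT, a difference of −0.22 (scanner SE 0.20). Csf2rb, the common beta chain, was measured by 3 probes. Its brightest read 8169 against 9259.6 on WT (−0.25), the next 7945 against 7381 on WT (0.04) and the dimmest 2633 against 2754 on WT (−0.13). The Csf2rb probes thus straddled 0, with a mean of −0.11 ± 0.14 (SD over 3 probes, not replicates). Csf2rb2, the IL-3 beta chain, read 2404 against 2858 on WT, a difference of −0.32 from its only probe (scanner SE 0.20). Csf2rb and Csf2rb2 are close paralogues lying side by side on chromosome 15, and the files give no probe sequences, so how far a probe reads both genes was not tested.

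Promoter windows are shown for Csf2ra and Csf2rb2, the alpha chain and the IL-3 beta chain, and for Flt3, whose brightest probe lay furthest from 0 under the scaling used here, because the label concerns a DNA-binding factor. RefSeq windows of 300 bases (250 before and 50 after the gene's start, build GRCm38.p6) were found for 7 of the 9 genes, all but Csf1r and Csf2rb. They were searched on both strands for GCGNGGGCG, the EGR motif, for GAGGAA, the core bound by the myeloid factor PU.1, and for TTCNNNGAA, the STAT5 motif. Capitals mark the matches, which are descriptions of letters and not binding sites.
Csf2ra, chr19:61228369-61228668, minus strand: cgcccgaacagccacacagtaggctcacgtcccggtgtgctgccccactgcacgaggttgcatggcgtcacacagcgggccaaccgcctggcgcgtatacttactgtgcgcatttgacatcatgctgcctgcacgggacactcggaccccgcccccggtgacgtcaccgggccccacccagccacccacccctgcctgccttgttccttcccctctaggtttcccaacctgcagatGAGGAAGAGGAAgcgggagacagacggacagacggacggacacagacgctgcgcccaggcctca
Csf2rb2, chr15:78305672-78305971, minus strand: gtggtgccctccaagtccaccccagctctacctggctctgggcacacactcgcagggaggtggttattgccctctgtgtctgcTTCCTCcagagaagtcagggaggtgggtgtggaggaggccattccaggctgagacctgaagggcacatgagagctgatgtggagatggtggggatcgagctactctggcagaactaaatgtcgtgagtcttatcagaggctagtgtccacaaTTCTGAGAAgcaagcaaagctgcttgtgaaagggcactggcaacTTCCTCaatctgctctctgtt
Flt3, chr5:147400440-147400739, minus strand: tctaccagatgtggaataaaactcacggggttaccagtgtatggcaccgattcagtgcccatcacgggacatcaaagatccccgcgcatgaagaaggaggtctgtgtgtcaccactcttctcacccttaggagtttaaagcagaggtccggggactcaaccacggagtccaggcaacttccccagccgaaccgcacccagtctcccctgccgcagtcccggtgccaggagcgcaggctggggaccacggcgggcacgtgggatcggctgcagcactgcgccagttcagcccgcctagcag
None of the 7 windows held GCGNGGGCG, which occurs in the windows of 6.27% of 27025 genes. GAGGAA was found in 4 of the 7 (Csf2ra, Csf2rb2, Csf3r and Kit), and in 31.3% of all genes. In Csf2ra 2 copies stand directly beside each other, and in Csf2rb2 2 copies stand apart. TTCNNNGAA was found once, in Csf2rb2, and in 9.55% of all genes. The Flt3 window above held none of the 3 motifs.

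Receptor and ligand of the M-CSF axis both read lower on the EGR1-deficient-labelled array after scaling, Csf1r mainly in 1 of its 2 probes. Csf1r, the M-CSF and IL-34 receptor on chromosome 18, was read by 2 probes of the same transcript. The brighter gave 8289 on the EGR1-deficient-labelled array against 10347 on WT, a difference of −0.39 (scanner SE 0.20). The other gave 5399 against 5353 on WT, a difference of −0.05. The 2 readings lie 0.33 apart, so the size of the Csf1r difference depends on the probe.

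Csf1, the gene of M-CSF on chromosome 3, was lower on the EGR1-deficient-labelled array in all 3 of its probes. They read 254 against 293 on WT (−0.27), 132 against 178 on WT (−0.50) and 84.4 against 106 on WT (−0.39). The probes averaged −0.39 ± 0.12 (SD over 3 probes of 1 RNA, not replicates). Only Csf1 and Csf2rb of the 9 genes were read by 3 probes, so probes on 1 side of 0 cannot be compared across the 9. Among 2173 genes within 0.5 log2 units of the mean signal of its brightest probe, the 5th and the 95th percentile were −0.46 and 0.38. The Csf1 difference of −0.27 stood inside that range. In bulk RNA such a difference cannot be told apart between fewer cells that express a gene and less of its RNA per cell.

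Flt3, the receptor that carries dendritic cell precursors through their development, was the gene of the 9 furthest from 0 by its brightest probe under the scaling used here. With array medians Csf1r (−0.50) and Csf2rb2 (−0.43) lay further than Flt3 (0.39), and Csf1 (−0.39) about as far. After normexp Csf1r (−0.38), Csf2rb2 (−0.34), Csf2rb (−0.27) and Csf1 (−0.26) lay further. Flt3 read 135 (scanner error 13.8) on the EGR1-deficient-labelled array and 91.1 (scanner error 9.68) on the WT array, 1.42-fold higher (difference 0.50, scanner SE 0.21). The difference rests on 1 spot of 1 probe per array. After normexp background correction it was 0.21, and it was 0.62 and past 1.5-fold in the values of the authors' deposited table. Among 2265 genes of like brightness, within 0.5 log2 units of mean signal, the 5th and the 95th percentile of the differences were −0.57 and 0.52, so Flt3 stood inside that range.

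Kit, the stem cell factor receptor, was level, at 457 on the EGR1-deficient-labelled array and 435 on the WT array (difference 0.01). Il3ra, the IL-3 alpha chain, gave opposite signs in its 2 probes. The brighter read 278 against 245 on WT (0.12) and the dim one 25.3 against 28.9 on WT (−0.26), where the lowest signal called well above background was 13.3 on the EGR1-deficient-labelled array and 16.3 on WT. Csf3r, the G-CSF receptor of neutrophils, had the brightest probe of the group and read 55219 on the EGR1-deficient-labelled array against 48947 on WT, a difference of 0.11 (scanner SE 0.20). With each array centred on its median, Csf3r was −0.01 and Kit −0.11. Kit was also −0.05 after normexp, and Il3ra was −0.07 as the mean of its probes, so these 3 genes have no settled direction.

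Genes as bright as the GM-CSF receptor chains and Csf1r sat slightly below 0 as a whole, and the 71 genes as bright as Csf3r slightly above, with a median of 0.06. Among the 531 genes with a signal like that of Csf2ra the median difference was −0.13, and among the 249 like Csf2rb −0.10. Csf2ra therefore lay 0.10 below the middle of genes of its brightness, Csf2rb 0.15 and Csf2rb2 0.20 below. Csf1r lay 0.28 below, and its −0.39 was under the 5th percentile of 224 such genes (−0.34), a reading its second probe did not share. Loess, which removes this trend, left Csf1r at −0.26, Csf2rb2 at −0.20, Csf2rb at −0.12 and Csf2ra at −0.10.

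**Figure D2:**
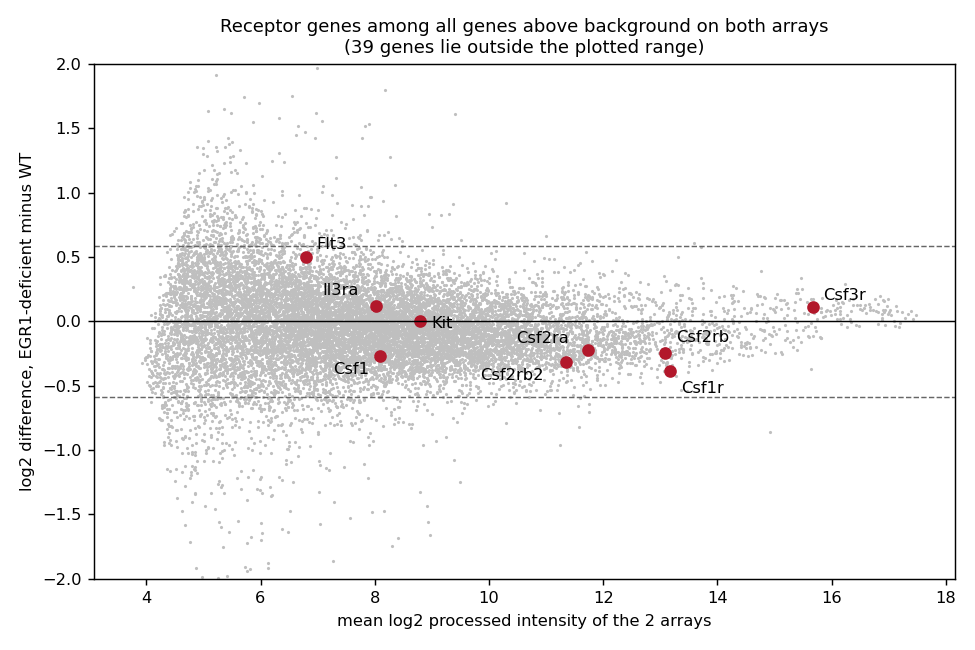
The 9 genes (red, named) among all 13726 genes above background on both arrays (grey). The horizontal axis is the mean log2 intensity of both arrays and the vertical axis the log2 difference, EGR1-deficient minus WT, with dashed lines at 1.5-fold, and 39 genes fall outside the range drawn. The 9 genes lie within the grey cloud, with Csf1r at its lower edge for bright genes.

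Of the 8 ligands, Csf1 and Flt3l, the FLT3 ligand gene, were well above background on both arrays. Flt3l read 417 against 403 on WT (−0.02, another probe 0.11). Kitl, stem cell factor, was above background on the EGR1-deficient-labelled array only, at 29.5 against 16.0 on WT, at least 1.73-fold higher. Csf2, Csf3, Il3, Il5 and Il34 were well above background on neither array, Csf2 being the gene of GM-CSF, which was supplied in the medium. The at-least fold was taken against the higher of the dim probe's own signal and the lowest signal called well above background on that array.

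Among the class III kinases outside the 9 genes, Pdgfrb read 59.4 on the EGR1-deficient-labelled array and 28.6 on the WT array (0.99), from 1 dim probe, and Pdgfra was not well above background. PDGF receptors mark stromal cells. Of 10 stromal and osteoclast markers, 3 were above background on both arrays, with a median of −0.39. They were the collagen gene Col1a2 (1.05) and the osteoclast genes Acp5 (−0.64) and Dcstamp (−0.39, another probe −0.84). Another 6 were above background on the EGR1-deficient-labelled array alone. Of these, the stromal genes Dcn and Col1a1 were at least 1.83-fold and 1.31-fold higher there. The osteoclast genes Calcr (218 against 3.62 on WT) and Ocstamp were at least 12.8-fold and 1.64-fold higher, and Col3a1 and Ctsk gave no bound. The unscaled signal summed over all 10 was 1652 on the EGR1-deficient-labelled array against 1870 on WT, of which Acp5 gave 884 and 1318. The part of stromal cells in the Pdgfrb reading was not tested. Of the related cytokine receptor chains, Il5ra, the IL-5 alpha chain, read 128 against 134 on WT (−0.12). Il2rg, the common gamma chain, differed by −0.02, Il7r by 0.12 and Crlf2, the TSLP receptor chain, by −0.54 with another probe at 0.08.

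Of 71 pathway genes outside the 9, from lists of ligands, kinases, adaptors, inhibitors and responses, 62 were above background on both arrays. Of these, 3 were 1.5-fold or more higher on the EGR1-deficient-labelled array (Pdgfrb, Gab1 and Cish) and 1 lower (Socs3), each read by 1 probe, beside 3.51% higher and 4.17% lower over all genes, so the count is near that background. The median was −0.11 beside −0.05 over all genes. Of 29 proximal signalling genes measured, 22 lay below 0 with a median of −0.11, beside 57.4% of all genes below 0. Jak2, the kinase bound to the common beta chain, read 700.0 against 800.3 on WT (−0.26), with its other probe at 0.17. Stat5a and Stat5b, which carry the GM-CSF signal to the nucleus, differed by 0.0018 and −0.14. The furthest were the adaptor Gab1 (103 against 63.1 on WT, 0.65), the kinase Jak1 (−0.56), the kinase Syk (−0.34, another probe 0.08) and the Src family kinase Lyn (−0.34).

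Among 17 negative regulators, 10 lay below 0, near the 57.4% of all genes, with a median of −0.13. The 2 furthest differed in opposite directions. Socs3, the inhibitor of G-CSF and IL-6 family receptors, read 161 on the EGR1-deficient-labelled array and 276 on the WT array (−0.84, 1.79-fold lower). Cish, a feedback inhibitor induced through STAT5, read 89.4 against 55.4 on WT (0.62). Sh2b3, which restrains KIT and JAK2 signals, differed by −0.50 with other probes between −0.30 and 0.04, and the adaptor Dok2 by −0.50. Of 10 measured GM-CSF response genes 7 lay below 0, with a median of −0.13, beside the same 57.4% of all genes. The 7 were led by the nuclear receptor gene Pparg (146 against 207 on WT, −0.57) and the chemokine gene Ccl17 (1178 against 1415 on WT, −0.33). Pim1, a STAT5-responsive kinase gene, differed by −0.25, and Myc by 0.32 with another probe at 0.03.

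**Figure D3:**
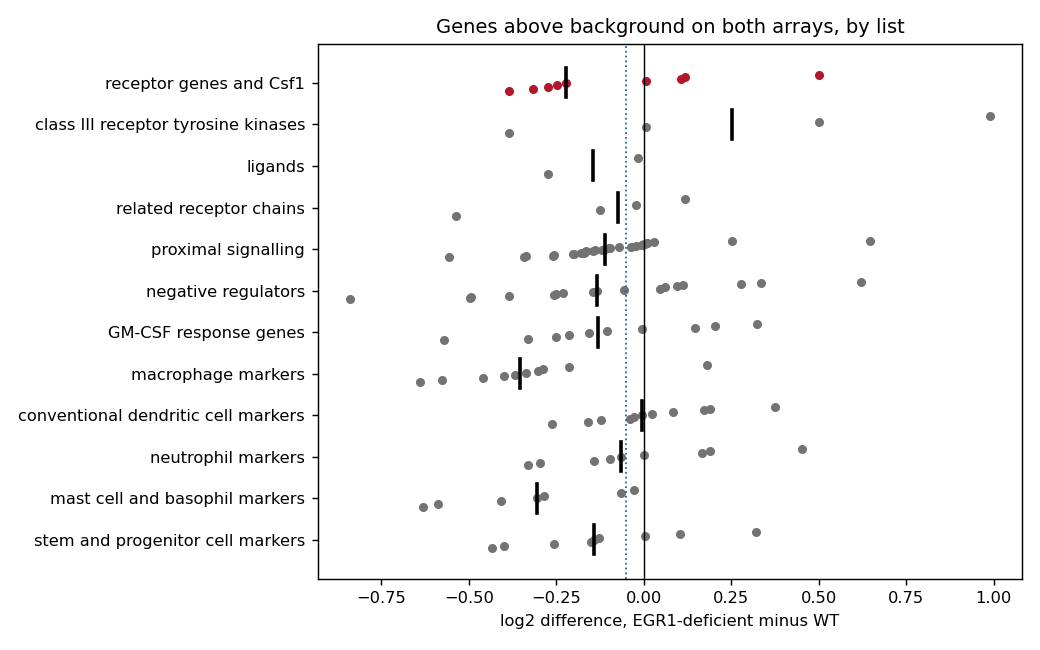
Log2 difference, EGR1-deficient minus WT, of each gene above background on both arrays, by list, with the 9 genes in red at the top. Csf1r, Flt3 and Kit are drawn again in grey in the class III kinase list and Csf1 in the ligand list, and count in those medians. Black bars are list medians and the dotted blue line is the median over all genes, −0.05. The 9 genes span −0.39 to 0.50. Among the marker lists drawn, which are not all those measured, macrophage markers have a median of −0.35.

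Marker lists were set beside the receptors of the same cells. Medians use scaled differences of genes above background on both arrays. Over all such genes, 57.4% lay below 0 and the median was −0.05. Of them, 3.51% were 1.5-fold or more higher on the EGR1-deficient-labelled array and 4.17% lower. Sums add unscaled intensities of every listed gene with a probe, also the dim ones, and are dominated by the brightest genes. They are to be read against array percentiles of 191.6 on the EGR1-deficient-labelled array and 183.0 on WT, so a slightly higher sum there is not higher after scaling. Macrophage markers, beside Csf1r, had 9 of 10 genes below 0 and a median of −0.35. Their summed signal was 35433 on the EGR1-deficient-labelled array and 41508 on the WT array. C1qc (−0.64) was 1.5-fold or more lower, Adgre1 differed by −0.30, and Cd14, the only 1 above 0, by 0.18. Neutrophil markers, which accompany Csf3r, had 5 of 9 below 0 and a median of −0.07, with a summed signal of 61021 against 54637 on WT. Most of that signal came from S100a9 (38540 against 32811 on WT, 0.17). Camp differed by 0.45, S100a8 by −0.14, Ly6g by −0.30 and Mmp9 by −0.33. Dendritic cell markers, beside Flt3, had 6 of 11 below 0, a median of −0.0036 and sums of 46998 against 46783 on WT. Mast cell and basophil markers, beside Kit, had 7 of 7 below 0 with a median of −0.30 and sums of 4003 against 4922 on WT. Mcpt8 (−0.63) and Hdc (−0.59, another probe −0.32) were 1.5-fold or more lower, whereas Fcer1a and Mcpt4 were not well above background. Eosinophil markers, beside Il5ra and the common beta chain, had 4 of 4 below 0 with a median of −0.66. Of these Ear6 (−0.94, another probe −0.15), Prg2 (−0.69) and Epx (−0.64) were 1.5-fold or more lower, Ccr3 was above background on the EGR1-deficient-labelled array alone, and the sums were 1884 against 2851 on WT. Some lists were not set beside a receptor. B cell markers had a median of −0.58 over 5 genes, with sums of 787 against 617 on WT. The brightest of them, Pax5 (0.47) and Ms4a1 (0.45), were higher, and Cd79a (−0.58), Cd79b (−1.09) and Ebf1 (−1.15) lower from dim probes. Plasmacytoid dendritic cell markers had −0.14 over 4, with Siglech at 0.37 and sums of 9399 against 8270 on WT. T and NK cell markers had 0.18 over 3, between −1.06 (Il2rb) and 1.62 (Klrd1), with sums of 459 against 267 on WT. Stem and progenitor markers, also beside Kit and Flt3, had 6 of 9 below 0, with a median of −0.14 and sums of 9305 against 10266 on WT. Of those below 0, Sox4 (−0.40) and Cd34 (−0.15) each had another probe above 0, at 0.51 and 0.60. The part of cell composition in the receptor readings was not tested.

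**Figure D4:**
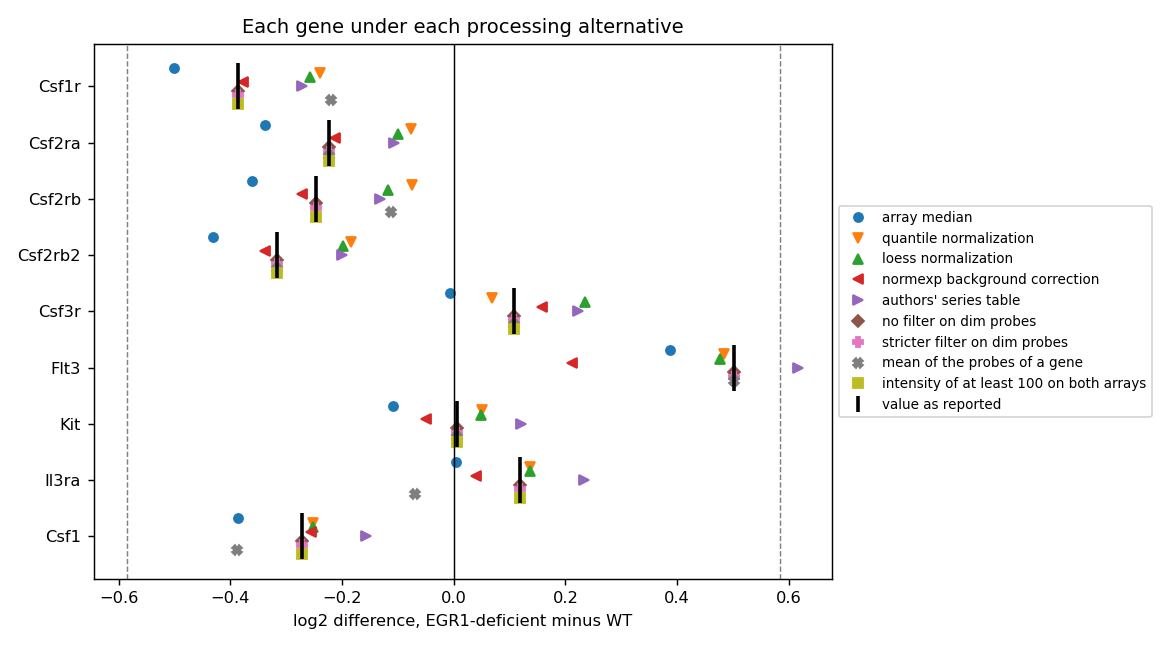
Log2 difference, EGR1-deficient minus WT, of each of the 9 genes as reported (black bar) and under each processing alternative (coloured marks), with dashed lines at 1.5-fold. Csf1r, Csf2ra, Csf2rb, Csf2rb2 and Csf1 stay left of 0 and Flt3 right of 0 under all alternatives in which they were measured, while marks of Csf3r, Kit and Il3ra fall on both sides.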

How the data were processed

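The scanner output that the authors deposited for 2 arrays holds linear spot intensities. Per the file headers they come from Agilent Feature Extraction 12.1.0.3, and the submitters' processing notes name 11.5.1.1. Both arrays share a slide and a scan, per the file headers. Well above background were 35492 of 59305 non-control spots on the EGR1-deficient-labelled array and 32736 on WT, none was saturated, and 77 and 79 outlier spots were left out. The number of arrays limits the precision. The authors' deposited series table equals these intensities times 1 constant per array (6.18 and 5.97), with no centring; the origin of the constants is unknown.

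Log2 intensity minus the array's 75th percentile (191.6 and 183.0) was taken, with repeated spots averaged. Probes were named through RefSeq accessions (GRCm38.p6, used for names, chromosomes and promoter windows; the array headers name mm9), giving 34565 named probes. The brightest probe over both arrays stands for its gene. All probes of the 9 genes are named, all genes of the related kinase, ligand and receptor chain lists, and up to 4 genes with the largest difference of each other pathway list; Jak2, Stat5a, Stat5b and the marker genes were named for their role. With 2 arrays, likeness of patterns between genes cannot be measured. The 9 genes and the lists were chosen with earlier results of these data known. Alternatives used limma 3.58.1 in R 4.3.3, and the rest Python 3.11.15. Normexp (offset 50) took the median spot signal because the deposited files hold no mean signal. The counting step was tested on simulated data.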

Additional observations from a re-analysis of the deposited data

How the results depend on the processing

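No paired analysis was possible because there is 1 array per label, and no array could be left out. With the authors' series table, 1 of the 9 genes, Flt3, was 1.5-fold or more higher on the EGR1-deficient-labelled array, against 0 as reported. That count was 0 under 7 other alternatives and the 1 chosen after seeing the data, and the count lower was 0 under all 9. The median of the 9 genes ran between −0.34 and −0.08, and that of the 62 pathway genes between −0.22 and 0.0030. Leaving out the 1 chosen after seeing the data, 68 of 72 single-gene values moved by less than 0.165 log2 units. Many of these could not move: the filters leave a gene's difference unchanged, and so does averaging for genes with 1 probe. Array medians and the series table shift every gene alike, by less than that limit. The count is therefore not a measure of stability. The 4 larger moves were Csf1r and Il3ra with probes averaged, Csf2rb after quantile normalization and Flt3 after normexp. The median over all genes was −0.17 with arrays centred on their medians and 0.06 with the series table, against −0.05 as reported. The median of the 9 genes minus that of all genes was −0.17 as reported, which a constant factor per array does not change. It was −0.05 after quantile normalization, −0.07 after loess, −0.07 when a gene's probes were averaged, −0.12 without a filter and −0.17 after normexp. The split of genes 1.5-fold higher and lower was 482 and 573 as reported, 288 and 989 with array medians, 370 and 696 after loess, 68 and 130 after normexp, 649 and 239 with the series table and 2527 and 1932 without a filter. A stricter filter, a signal at or above the 25th percentile, removed no gene. An intensity of at least 100 on both arrays, chosen after seeing the data, kept 8 of the 9 genes, without Flt3, and gave 70 and 144.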
